A study of Mus musculus with 6 samples.

Results

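Levels of 10 tubulin genes were followed in mouse bone marrow LSK cells with and without HDAC6, a cytoplasmic deacetylase for which tubulin is a known substrate. The genes were taken by symbol from the deposited table: the alpha-tubulin genes Tuba1a, Tuba1b, Tuba1c and Tuba4a, the beta-tubulin genes Tubb2a, Tubb2b, Tubb4b, Tubb5 and Tubb6, and the gamma-tubulin gene Tubg1. All 10 were among the 16022 gene symbols of the table, and 9 passed the filter on low counts, which left 12875 genes to test. The libraries, 3 wild-type (WT) and 3 HDAC6 knockout, were made from LSK cells, a bone marrow fraction lacking lineage markers and carrying Sca-1 and c-kit, in which blood stem cells and early progenitors are found. The labels describe the mice as wild-type and HDAC6-deficient, with the genotype entries WT and KO, and give no allele, age, treatment or pooling. Nothing in them ties each library to its own animal. The p-values therefore cover only the spread among the 6 libraries, which may be technical.

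Microtubules are built from dimers of an alpha- and a beta-tubulin, and vertebrates carry several genes, called isotypes, for each. Gamma-tubulin is not part of the polymer wall and nucleates new microtubules at the centrosome. HDAC6 removes the acetyl group from lysine 40 of alpha-tubulin, which lies inside the microtubule, and the enzyme ATAT1 adds it. Cells also sense unpolymerised tubulin and degrade alpha- and beta-tubulin mRNA during translation, a process known as autoregulation. The libraries measured mRNA only, so acetylation of the protein was not observed.

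The coding sequences of the alpha isotypes are shown around codon 40 because this codon is the one HDAC6 acts on in the protein. They are taken from the GENCODE M21 transcripts of GRCm38, 5′ to 3′ on the coding strand, from codon 35 to codon 45 of the coding exons, with codon 40 in capitals. Tuba8, an alpha-tubulin gene outside the 10, is shown for contrast. In that annotation Tuba1a, Tuba1b and Tuba1c lie on chromosome 15, Tuba4a on chromosome 1 and Tuba8 on chromosome 6. Of the genes shown further on, Tubb5 lies on chromosome 17, Tubb4b on chromosome 2 and Tubg1 on chromosome 11.
Tuba1a: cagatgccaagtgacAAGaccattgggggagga
Tuba1b: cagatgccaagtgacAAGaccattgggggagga
Tuba1c: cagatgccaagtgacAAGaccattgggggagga
Tuba4a: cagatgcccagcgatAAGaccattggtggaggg
Tuba8: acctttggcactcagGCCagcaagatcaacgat

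Tuba1a, Tuba1b and Tuba1c were identical over these 33 bases. Tuba4a differed from Tuba1b at 5 bases and kept the lysine codon AAG. Tuba8 carried the alanine codon GCC at position 40 in its own numbering.

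The ends of the coding sequences are shown because this is where isotypes differ most in known function: the last residue of many alpha-tubulins is a tyrosine that is removed and put back by enzymes. The capitals mark the last codon before the stop codon.
Tuba1b: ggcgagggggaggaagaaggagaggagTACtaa
Tuba1c: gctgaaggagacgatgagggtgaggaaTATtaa
Tuba4a: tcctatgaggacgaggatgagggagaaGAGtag
Tubb5: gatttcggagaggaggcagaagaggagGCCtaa
Tubb4b: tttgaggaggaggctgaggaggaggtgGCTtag

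Tuba1b and Tuba1c ended in a tyrosine codon, TAC or TAT. Tuba4a ended in GAG, a glutamate codon, and the beta isotypes Tubb5 and Tubb4b in alanine codons.

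The first 4 codons are shown because autoregulation reads the first residues of the growing tubulin chain. The start codon is in lower case and the next 3 codons are in capitals.
Tuba1b: atgCGTGAGTGC
Tuba4a: atgCGCGAGTGC
Tubb5: atgAGGGAAATC
Tubb4b: atgAGGGAGATC
Tubg1: atgCCGAGAGAA

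The alpha and beta isotypes shown had an arginine codon and then a glutamate codon directly after the start. Tubg1 had a proline codon, CCG, before its arginine and glutamate codons. Whole coding sequences of Tuba1a and Tuba1b were 98.3% identical, those of Tuba1b and Tuba1c 97.9%, and those of Tubb2a and Tubb2b 96.5%. By contrast Tuba4a was 85.0% identical to Tuba1b, and Tubb4b 82.2% identical to Tubb5. The sources used here do not give the treatment of reads shared by such copies. The deposited counts of Tuba1a, Tuba1b, Tuba1c and Tuba4a were fractional in all 6 libraries. Those of Tubg1 were fractional in 5, and those of Tubb4b, Tubb5 and Tubb6 were whole in all 6. How reads were divided among the Tuba1 genes was not tested, and their separate values are uncertain for that reason.

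Before the results by gene, the libraries are described briefly. Their totals lay between 25993971 and 28743672 counts, and Hdac6 itself checked the labels. Its CPM (counts scaled to library size with TMM factors) was 68.0, 58.2 and 54.3 in WT replicates 1, 2 and 3 and 9.62, 7.69 and 11.3 in knockout replicates 1, 2 and 3. The groups were far apart: the log2 fold change was -2.66 (SE 0.19), and the quasi-likelihood test of edgeR with Benjamini-Hochberg adjustment gave 0.000594 as adjusted p. By chi-square per degree of freedom over gene counts, knockout replicate 3 was nearer to the WT libraries (25.8 to 35.6) than to the other knockout libraries (53.9 and 58.5), and WT libraries differed from each other by 35.2 to 39.3. Its Hdac6 level was nonetheless that of the knockout. All 10 LSK markers passed the filter on low counts, with summed levels of 4204 to 4690 CPM in WT and 3316 to 4332 CPM in the knockout, and with 3 above and 7 below WT. For Kit the WT mean was 1272 ± 127 CPM against 875 ± 185 CPM without HDAC6, and Cd34 and Mecom also lay below WT in every knockout library, while Ly6a, which encodes Sca-1, measured 65.1 ± 4.34 and 107 ± 21.4 CPM (SD, n = 3 each). In 1 of the 10 all knockout libraries lay above WT and in 3 below (18.6% of all tested genes did not overlap). None of the 10 was called by edgeR, and 5 had an unadjusted p under 0.05 (13.4% of all tested genes had). DESeq2, which called 1.35% of its genes, called Kit (adjusted p = 0.0471) and Ly6a (0.0072). The T cell markers Cd3e, Cd3d and Cd3g stayed under 1 CPM in every library. The 8 T and NK cell markers summed to 267 to 323 CPM in WT and 270 to 360 CPM in the knockout, most of it Nkg7 at 256 to 312 CPM. Of the others Il2rb measured 4.59 ± 1.52 and 21.9 ± 12.3 CPM, Ncr1 1.58 ± 0.95 and 7.74 ± 6.25 CPM and Gzma 0.37 ± 0.03 and 3.40 ± 3.68 CPM (SD, n = 3 each), and DESeq2 called these 3. The 8 erythroid markers summed to 36.6 to 64.9 CPM in WT and 32.2 to 65.0 CPM in the knockout. The 8 neutrophil markers summed to 38.2 to 104 CPM in WT and 12.4 to 28.9 CPM in the knockout, with 3 of them called by DESeq2. The 7 macrophage markers summed to 100.1 to 111 CPM in WT and 105 to 250 CPM in the knockout. The highest sum was mostly Csf1r, at 208 CPM in knockout replicate 2 against 56.0 and 70.3 CPM in knockout replicates 1 and 3. Of the 6 macrophage markers tested, 3 lay above WT and 3 below. The 6 B cell markers summed to 54.1 to 74.8 CPM in WT and 61.9 to 84.3 CPM in the knockout, and the 6 stromal markers to 3.16 to 6.15 and 1.84 to 3.55 CPM. The part of these cells in the results was not tested.

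No tubulin gene passed the test. Over all 12875 genes edgeR called 0.00777%, which is Hdac6 alone, and 0 of the 9 tested tubulin genes, whose adjusted p ran from 0.319 to 0.921. Of the 9, 7 had a positive log2 fold change and 2 a negative one, with a median of 0.18 against -0.003 over all tested genes. The direction of Tubb2a, near 0, turned negative with limma-voom, with limma on FPKM and without knockout replicate 3, and that of Tuba1a turned positive without knockout replicate 1. At an unadjusted p under 0.05 there were 3 of 9, against 13.4% of all tested genes. In 3 of 9 the knockout values all lay above the WT values, against 18.6% of all tested genes whose groups did not overlap in either direction. DESeq2 called 1.35% of its genes and 0 of the tubulin genes, with adjusted p from 0.202 to 0.932. For all 9 the 95% interval of the fold change lay within 2-fold in either direction, and for 7 within 1.5-fold. Without knockout replicate 3 there were 5 of 9 at an unadjusted p under 0.05 (2676 of 13125 genes in all), the lowest adjusted p was 0.0818, and 6 were positive and 3 negative with a median of 0.24. The log2 fold changes without it were 0.27 for Tuba1b, 0.32 for Tuba4a, 0.24 for Tubb4b, 0.18 for Tubb5, 0.29 for Tubg1 and -0.46 for Tubb6. Without knockout replicate 1, 0 of 9 had an unadjusted p under 0.05 (1001 of 13205 genes in all). The lowest edgeR adjusted p was then 0.668, and 8 were positive and 1 negative with a median of 0.08. The log2 fold changes were then 0.08 for Tuba1b, 0.21 for Tuba4a, 0.07 for Tubb4b, 0.13 for Tubb5, 0.07 for Tubg1 and -0.41 for Tubb6. Without WT replicate 1 there were also 0 of 9 (1352 of 13132 genes in all).

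**Figure D1:**
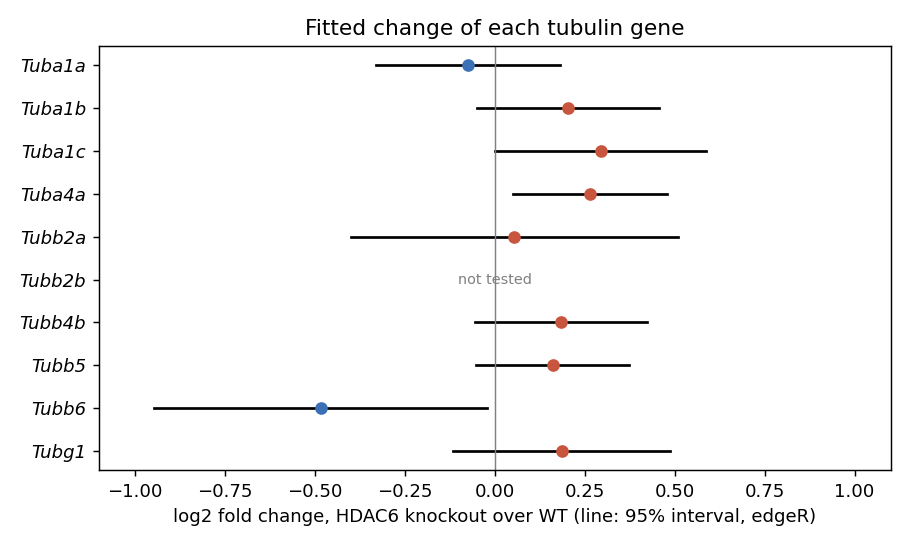
Fitted log2 fold change (horizontal axis) of each tubulin gene in HDAC6 knockout over WT LSK cells, 3 libraries each, with the 95% interval from edgeR as a line. Tubb6 had the lowest value (-0.48) and Tuba1c the highest (0.29); Tubb2b was not tested, and the sign of Tubb2a and Tuba1a changed under some alternatives.

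Levels of different genes can be set side by side per transcript length, for which the deposited FPKM (fragments per kilobase of gene, scaled to sequencing depth) were used. Tuba1b was the most abundant of the 10, at 2398 to 2687 FPKM in WT and 2562 to 3142 FPKM in the knockout, and ranked 9 of 16022 symbols by mean FPKM. Tubb5 followed at a mean of 946 FPKM over the 6 libraries, then Tubb4b at 566, Tuba4a at 293 and Tuba1c at 110 FPKM. The ranges of these neighbours over the libraries did not touch. Tubg1 (76.9 FPKM) and Tuba1a (67.5 FPKM) had overlapping ranges, as had Tubb6 (13.9 FPKM) and Tubb2a (9.73 FPKM). Tubb2b was listed at 0 to 0.06 FPKM.

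**Figure D2:**
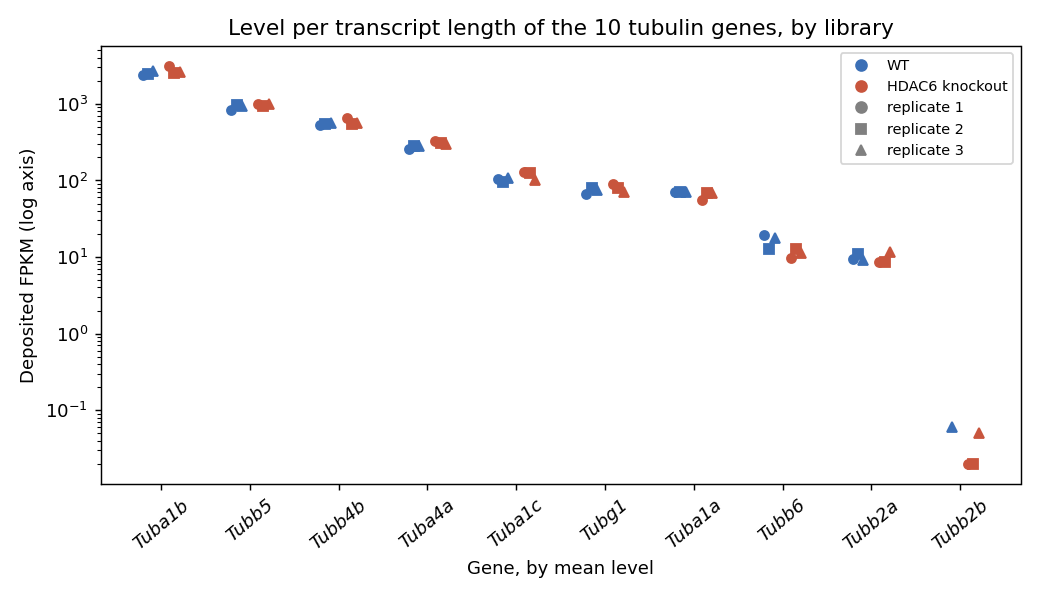
Deposited FPKM (vertical log axis) of the 10 tubulin genes in each library, with genes ordered by mean level, WT in blue, HDAC6 knockout in red and a marker shape for each replicate. Levels ran from 2398 to 3142 FPKM for Tuba1b down to at most 0.06 FPKM for Tubb2b, whose 2 WT values of 0 cannot be drawn on a log axis.

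Among the alpha-tubulin genes, Tuba1b, the main isotype of dividing cells, measured 3150, 3213 and 3592 CPM in WT replicates 1, 2 and 3. In the knockout it measured 4443, 3583 and 3437 CPM. Knockout replicate 1 stood above all other libraries, while the other two lay within the WT range. The means were 3318 ± 239 and 3821 ± 544 CPM (SD, n = 3 each), a 1.15-fold difference with a 95% interval of 0.966 to 1.37 (edgeR adjusted p = 0.45). The log2 fold change was 0.20 with all libraries and 0.08 without knockout replicate 1.

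Tuba4a, the isotype without an encoded terminal tyrosine, measured 479, 507 and 525 CPM in WT and 649, 611 and 556 CPM in knockout replicates 1, 2 and 3. All 3 knockout libraries lay above all 3 WT libraries, and the same held on the FPKM scale. The means were 504 ± 23.6 and 606 ± 46.4 CPM (SD, n = 3 each), and the log2 fold change was 0.27 (SE 0.10; edgeR adjusted p = 0.319). Tuba4a had the smallest p of the tested tubulin genes.

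Tuba1c measured 177, 163 and 185 CPM in WT and 237, 232 and 175 CPM in the knockout. Knockout replicates 1 and 2 were above the WT libraries and knockout replicate 3 was among them. Its log2 fold change was 0.29 (SE 0.13, edgeR adjusted p = 0.371), and 0.42 without knockout replicate 3.

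Tuba1a, the isotype best known from neurons, measured 94.7, 94.3 and 96.2 CPM in WT and 80.3, 96.6 and 94.0 CPM in the knockout. Only knockout replicate 1 departed from the other libraries, and it was low for Tuba1a while high for Tuba1b. The means were 95.1 ± 0.99 and 90.3 ± 8.74 CPM (SD, n = 3 each), with an edgeR adjusted p of 0.791. On the FPKM scale, where no TMM factor enters, the knockout values of Tuba1a (55.7 to 69.1) all lay below those of WT (70.6 to 71.3). When the counts of Tuba1a, Tuba1b and Tuba1c were summed to a single feature, the log2 fold change was 0.20 (SE 0.11, edgeR adjusted p = 0.444), close to that of Tuba1b alone.

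Among the beta-tubulin genes, Tubb5, the common isotype of blood and other dividing cells, measured 1955, 2290 and 2269 CPM in WT and 2553, 2358 and 2373 CPM in the knockout. The knockout libraries all lay above WT on this scale, although knockout replicates 2 and 3 exceeded WT replicate 2 by little. On the FPKM scale the groups overlapped. The means were 2171 ± 188 and 2428 ± 108 CPM (SD, n = 3 each), a 1.12-fold difference with a 95% interval of 0.965 to 1.30 (edgeR adjusted p = 0.475).

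Tubb4b, a widely expressed isotype also used in cilia, measured 720, 718 and 766 CPM in WT and 958, 774 and 771 CPM in the knockout. Knockout replicate 1 was high and the other knockout libraries lay just above WT replicate 3, and on the FPKM scale the groups overlapped. Its log2 fold change was 0.18 (SE 0.11, edgeR adjusted p = 0.469), and 0.07 without knockout replicate 1.

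Tubb6, an isotype that destabilises microtubules when overexpressed, was the tubulin gene with the lowest log2 fold change. It measured 28.8, 18.7 and 26.7 CPM in WT and 15.8, 20.2 and 17.1 CPM in the knockout. WT replicate 2 lay among the knockout libraries, so the groups overlapped. The log2 fold change was -0.48 (SE 0.21, edgeR adjusted p = 0.359), and it stayed below 0 under each alternative, from -0.65 to -0.36.

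Tubb2a, best known from the nervous system, measured 12.5 to 14.5 CPM in WT and 12.5 to 16.0 CPM in the knockout, with overlapping groups and an edgeR adjusted p of 0.921. Its near-copy Tubb2b had at most 2.53 counts in any library. It was at 0 in WT replicates 1 and 2 and above 0 in the other libraries. All values were at or under the level of 3 counts (0.106 to 0.114 CPM), so no fold change is given.

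Tubg1, the gamma-tubulin of microtubule nucleation, measured 92.6, 109 and 105 CPM in WT and 135, 116 and 98.8 CPM in knockout replicates 1, 2 and 3. Knockout replicate 3 lay within the WT range. The log2 fold change was 0.19 (SE 0.14, edgeR adjusted p = 0.556).

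**Figure D3:**
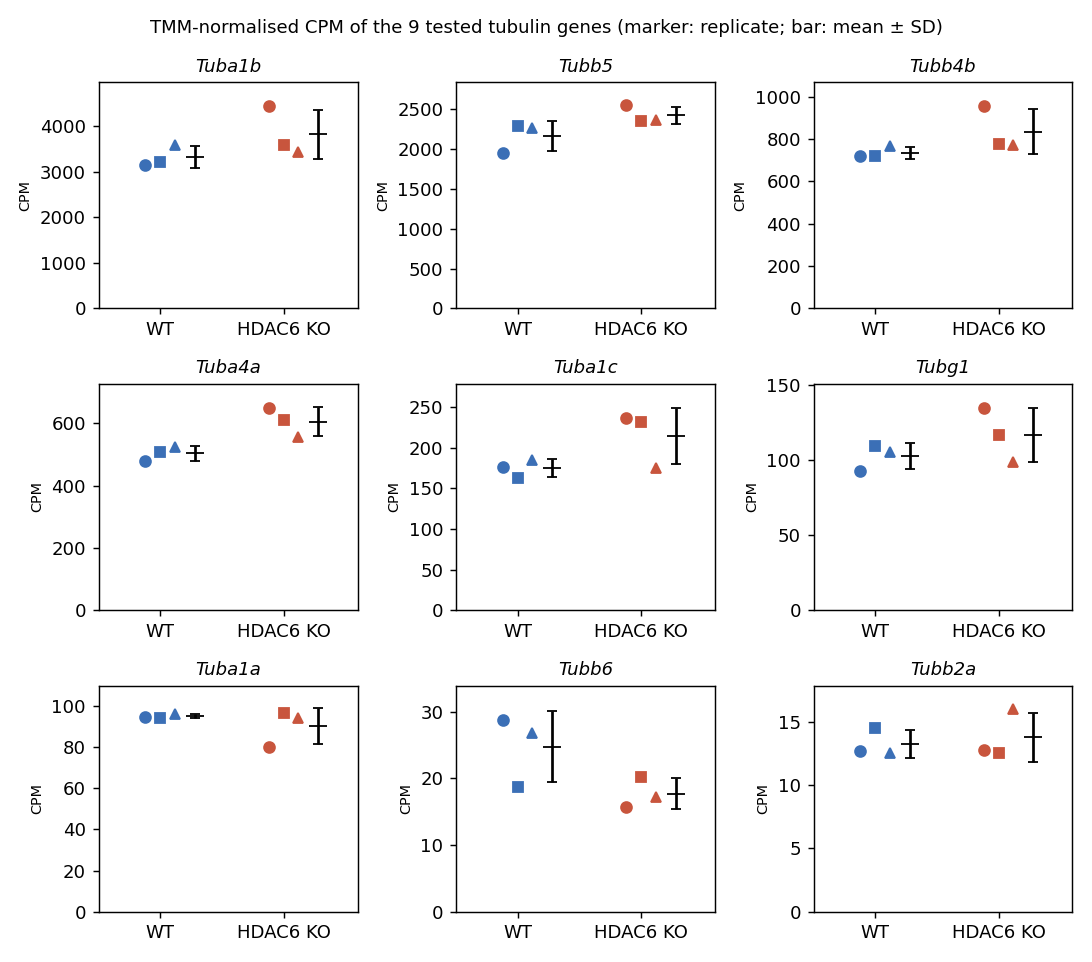
TMM-normalised CPM (vertical axes from 0) of the 9 tested tubulin genes in 3 WT and 3 HDAC6 knockout libraries, with replicates 1, 2 and 3 as circle, square and triangle and the mean ± SD beside them. Knockout replicate 1 (circle) was the highest of the 6 libraries for Tuba1b at 4443 CPM and the lowest for Tuba1a at 80.3 CPM, and Tuba4a is a gene whose groups did not overlap.

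Summed over the 10 genes, tubulin mRNA took 6709, 7128 and 7580 CPM in WT and 9083, 7804 and 7539 CPM in the knockout. Knockout replicate 3 lay below WT replicate 3 and knockout replicate 1 stood above the rest. The 20 mitotic genes together took 3637, 3311 and 3641 CPM in WT and 4867, 4228 and 3747 CPM in the knockout. On this TMM scale knockout replicate 1 was the highest library and knockout replicate 2 the next in both sums, while the order of the WT libraries differed. As a percent of counts, without TMM factors, the 10 tubulin genes took 0.690%, 0.736% and 0.770% in WT and 0.865%, 0.749% and 0.763% in the knockout. Knockout replicate 2 then lay below WT replicate 3 and knockout replicate 3. The mitotic sum is given on the TMM scale only. In the mitotic list 19 genes lay above WT and 1 below, and the median log2 fold change was 0.30. None was called by edgeR, 11 of 20 had an unadjusted p under 0.05 (13.4% of all tested genes had), and in 10 of 20 all knockout libraries lay above WT (18.6% of all tested genes did not overlap, in either direction). The part of dividing cells in the tubulin levels was not tested, and in such bulk samples more cells of a type and more RNA per cell cannot be told apart.

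The isotype make-up of the pools overlapped between the groups for each isotype. Tuba1b made up 84.7%, 84.8% and 85.4% of the summed alpha FPKM in WT and 86.0%, 83.5% and 84.7% in the knockout. Tuba4a made up 9.22% ± 0.29 in WT and 9.64% ± 0.61 in the knockout (SD, n = 3 each). Tuba1c made up 3.43% ± 0.18 and 3.65% ± 0.43, and Tuba1a 2.39% ± 0.13 and 2.00% ± 0.41 (SD, n = 3 each). Within the beta pool Tubb5 held 61.6% ± 1.99 in WT and 61.6% ± 1.74 in the knockout, and Tubb4b 36.6% ± 1.72 and 37.0% ± 1.94 (SD, n = 3 each). Tubb6 held 1.39%, 0.824% and 1.15% in WT and 0.585%, 0.852% and 0.719% in the knockout.

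The ratio of alpha to beta FPKM was 2.04, 1.90 and 2.05 in WT and 2.18, 2.05 and 1.93 in the knockout. For all 8 shares and this ratio the groups overlapped. Exact two-sided permutation tests gave p from 0.2 to 0.9, and 0.9 for each after Benjamini-Hochberg adjustment over the 9 values; 3 samples against 3 cannot go below 0.1. The depth behind the rarer shares is modest, with 429 to 802 counts per library for Tubb6.

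**Figure D4:**
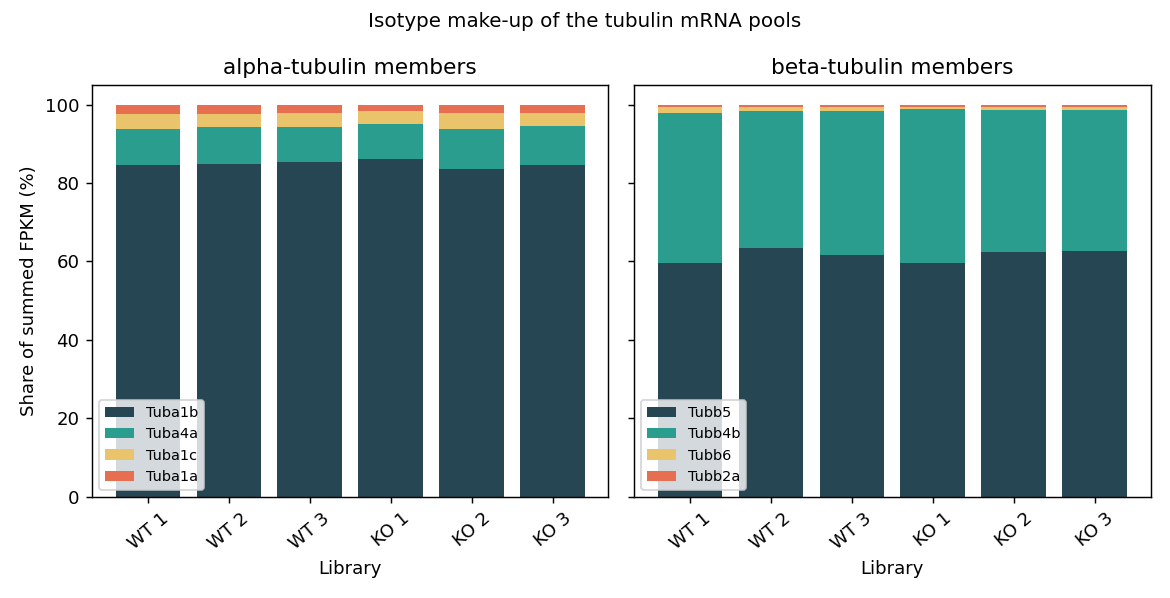
Share of each isotype in the summed FPKM (vertical axis, percent) of the alpha-tubulin genes (left) and beta-tubulin genes (right), with a stacked bar per library. Tuba1b held 83.5% to 86.0% of the alpha pool and Tubb5 59.5% to 63.5% of the beta pool in every library; Tubb2b is too low to draw.

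Read through the sequences above, alpha isotypes with a lysine codon at position 40 made up nearly all alpha mRNA. With Tuba8 and Tuba3a added to the pool, they held 98.4%, 98.7% and 99.0% in WT and 99.3%, 98.9% and 98.7% in the knockout. The rest was Tuba8, at up to 46.9 FPKM. The values overlapped between the groups.

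Of the other tubulin genes 8 were in the table and 6 were tested, with 1 above and 5 below WT. Their median log2 fold change was -0.13, with 0 called by edgeR (0 also at an unadjusted p under 0.05, and 0 by DESeq2). Tuba8 measured 64.3, 53.9 and 45.2 CPM in WT and 38.8, 53.1 and 59.5 CPM in the knockout, with overlapping groups. Tube1, the epsilon-tubulin gene of centrioles, measured 29.2 ± 4.75 and 26.2 ± 0.23 CPM (SD, n = 3 each). Tubb4a, at 4.22 ± 1.18 and 3.15 ± 0.75 CPM, and Tubg2, at 1.00 ± 0.74 and 0.33 ± 0.37 CPM (SD, n = 3 each), were low. Tubb1, the isotype of platelets, stayed at 0.45 to 1.96 CPM, beside platelet marker sums of 657 to 754 CPM in WT and 457 to 651 CPM in the knockout.

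The enzymes of lysine 40 acetylation are Atat1, which adds the mark, and Hdac6 and Sirt2, which remove it. All 3 had negative log2 fold changes, and only Hdac6 was called. Atat1 measured 26.6, 30.6 and 30.2 CPM in WT and 20.5, 24.3 and 24.4 CPM in the knockout. Its knockout libraries all lay below WT, at a log2 fold change of -0.34 (SE 0.16), but it did not pass (edgeR adjusted p = 0.381). Sirt2 measured 78.8 ± 6.58 and 76.2 ± 5.68 CPM (SD, n = 3 each) with overlapping groups.

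Enzymes of the other tubulin modifications (tyrosination, glutamylation, glycylation) split evenly, with 9 of 17 tested above WT and 8 below and a median of 0.00. Of these 0 were called by edgeR and 0 by DESeq2, and 2 had an unadjusted p under 0.05 (13.4% of all tested genes had). Tpgs2, a subunit of the glutamylase complex, measured 15.5 ± 2.90 and 22.6 ± 2.22 CPM (SD, n = 3 each). Its catalytic partner Ttll1 measured 30.8, 24.4 and 23.4 CPM in WT and 19.6, 18.3 and 23.3 CPM in the knockout. Ttll7, another glutamylase, was at 2.63 ± 0.69 and 1.02 ± 0.12 CPM. In each the groups did not overlap, and the edgeR adjusted p was 0.313, 0.41 and 0.324. They were named for having the 3 smallest p of the list. Among the 17 tested, all knockout libraries lay above WT in 2 and below in 2 (18.6% of all tested genes did not overlap).

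Tubulin chains are folded by prefoldin and the chaperonin CCT and then paired by the folding cofactors. Of 14 prefoldin and CCT genes 12 lay above WT and 2 below. Their median log2 fold change was 0.23, and 0 were called by edgeR. At an unadjusted p under 0.05 there were 5 of 14 (13.4% of all tested genes), and 0 were called by DESeq2. In 3 the knockout libraries all lay above WT and in 1 below (18.6% of all tested genes did not overlap). Cct8 measured 650, 686 and 690 CPM in WT and 1025, 894 and 747 CPM in knockout replicates 1, 2 and 3. Cct2 measured 253, 272 and 280 CPM in WT and 367, 331 and 316 CPM in the knockout, and in both genes the groups did not overlap. Cct6a measured 685 ± 41.7 and 871 ± 153 CPM (SD, n = 3 each), with knockout replicate 3 inside the WT range. The list's summed level was highest in knockout replicate 1, at 7277 CPM. In knockout replicate 3 it was 5371 CPM, inside the 5078 to 5470 CPM seen in WT.

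The 8 folding cofactors had 3 members above WT and 5 below, a median of -0.06 and 0 called by edgeR (0 at an unadjusted p under 0.05, 0 by DESeq2). In 1 of the 8 all knockout libraries lay below WT (18.6% of all tested genes did not overlap). Tbccd1, a relative of cofactor C, measured 58.3, 57.9 and 60.04 CPM in WT and 49.9, 50.1 and 54.2 CPM in the knockout, without overlap. Tbcb measured 77.8 ± 2.38 and 87.9 ± 12.7 CPM, and Tbcc 34.9 ± 8.31 and 40.1 ± 1.51 CPM, both with overlap. Ttc5, which binds the nascent tubulin chain in autoregulation, measured 117, 108 and 98.6 CPM in WT and 91.4, 93.7 and 88.0 CPM in the knockout. Its groups did not overlap, and it did not pass the test (log2 fold change -0.24, SE 0.11, edgeR adjusted p = 0.378).

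Partners of gamma-tubulin in the ring complex and the augmin complex numbered 19, of which 14 lay above WT and 5 below, with a median of 0.05. Of these 0 were called by edgeR, and 1 had an unadjusted p under 0.05 (13.4% of all tested genes had). In 3 the knockout libraries all lay above WT and in 1 below (18.6% of all tested genes did not overlap). DESeq2 called 1 of them, Akap9, a Golgi and centrosome scaffold. Akap9 measured 111, 117 and 125 CPM in WT and 76.2, 79.2 and 89.1 CPM in the knockout, without overlap. This was a log2 fold change of -0.53 (SE 0.11). The adjusted p was 0.298 by edgeR and 0.0113 by DESeq2. Tubgcp3, a core ring subunit, measured 85.9 ± 7.21 and 100.3 ± 0.51 CPM (SD, n = 3 each). Haus8, an augmin subunit, measured 48.5 ± 3.86 and 57.9 ± 5.11 CPM with overlapping groups.

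Among 26 microtubule-binding proteins 16 lay above WT and 10 below, with a median of 0.05. Of these 0 were called by edgeR and 0 by DESeq2, and 2 had an unadjusted p under 0.05 (13.4% of all tested genes had). In 4 the knockout libraries all lay above WT and in 1 below (18.6% of all tested genes did not overlap). Camsap1, which caps minus ends, measured 16.1, 16.8 and 22.3 CPM in WT and 14.9, 11.8 and 9.90 CPM in the knockout, without overlap. Map7, a lattice-binding protein, measured 85.3 ± 22.4 and 63.0 ± 7.27 CPM, and Fignl1, a severing-enzyme relative, 181 ± 6.35 and 213 ± 26.8 CPM (SD, n = 3 each). The leading mitotic genes were Plk1 (103 ± 6.70 and 155 ± 27.2 CPM), Ccna2 (150 ± 42.1 and 263 ± 58.4 CPM) and Bub1 (75.6 ± 7.24 and 109 ± 17.5 CPM; SD, n = 3 each), and DESeq2, which called 1.35% of its genes, called 2 of the 20, Plk1 and Ccna2.

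**Figure D5:**
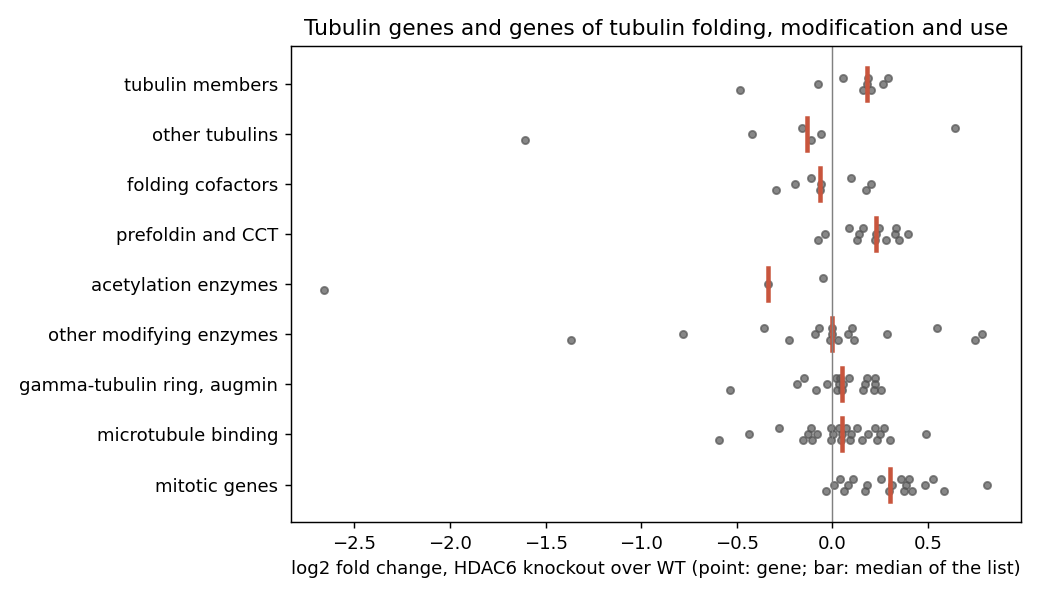
Log2 fold change (horizontal axis, HDAC6 knockout over WT) of each tested gene in the tubulin genes and in lists of tubulin folding, modification and use, with a point per gene and a bar at each list's median. The medians were 0.18 for the tubulin genes, 0.23 for prefoldin and CCT and 0.30 for mitotic genes, and lay between -0.13 and 0.05 for the other lists drawn except the 3 acetylation enzymes, which include Hdac6 at -2.66.

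The genes whose levels over the 6 libraries were most like those of the most abundant isotypes are given as a description. Among 10104 genes with a mean of at least 5 CPM, those nearest to Tuba1b by Pearson's r of log2 CPM were Cenpn, a centromere protein gene (0.984), Sbno2 (0.984) and Tubb4b, itself a tubulin (0.983). Those nearest to Tubb5 were Mkks, a chaperonin-like gene (0.997), LOC118568718 (0.992) and Purb, a nucleic acid binding protein gene (0.988). The 6 points of each comparison share their libraries and scaling. With Tuba1b, r was 0.87 for Tuba4a, 0.87 for Tubg1, 0.81 for Tuba1c and 0.78 for Tubb5. These ranked 432, 462, 832 and 1049 among the 10104 genes, so many genes outside the tubulins had a higher r with Tuba1b. The r with Tuba1b was -0.84 for Tuba1a, -0.54 for Tubb6 and -0.32 for Tubb2a. For Tuba1a, knockout replicate 1 had both the highest Tuba1b level (4443 CPM) and the lowest Tuba1a level (80.3 CPM). In the other libraries Tuba1a stayed at 94.0 to 96.6 CPM while Tuba1b ran from 3150 to 3592 CPM. The r without that library was not computed, and how reads were divided between these near-copies was not tested.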

How the data were processed

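RNA sequencing of 6 libraries was analysed from 1 deposited table of gene symbols. For each library the deposited columns hold, per the file headers, FPKM and read counts that behave as estimated counts. Listed in the submitters' processing notes are GRCm39, featureCounts 2.0.3, HISAT2 2.2.1, SAMtools 1.13 and DESeq2. The sources used here give no annotation, strand or treatment of shared reads. Counts, 19.6% to 20.9% of them fractional, were rounded. Knockout was compared with WT over all genes by edgeR 4.0.16 in R 4.3.3 (filterByExpr, minimum count 10, TMM, glmQLFit robust, threshold 0.05). Standard errors are the log2 fold change over the root of the F statistic, and intervals use the total degrees of freedom of that test. FPKM gave levels between genes and isotype shares. DESeq2 1.42.0 and limma 3.58.1 served as alternatives. The fits were also run on simulated counts with changes of at least 1.5-fold, so smaller changes were not covered. The outcome of that simulation is not reported here. Named were Hdac6, the 10 tubulin genes, the 3 list members with the smallest p, and the 3 genes most like the leading isotypes. Tuba8 and Tubb1 were added to these after their values were seen. Members and lists were chosen with earlier results of these data known. No library pair agreed within sampling noise (chi-square per degree of freedom 25.8 to 91.6). Coding sequences came from GENCODE M21 (GRCm38), so no coordinates are given. One coding sequence end, and the share that rests on it, is not reported here.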

Additional observations from a re-analysis of the deposited data

How the results depend on the processing

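The count of tubulin genes called was 0 with all 15 alternative fits, and 7 of 9 kept their direction in each. Over all genes the count of calls was 1, and 181 with DESeq2; leaving out single libraries gave 1 to 44, with 4 without knockout replicate 1 and 44 without knockout replicate 3. The log2 fold change of Tubb2a turned to -0.0165 with limma-voom and -0.0204 with limma on log2(FPKM + 1), and ran from -0.0678 (without knockout replicate 3) to 0.127 when single libraries were left out. That of Tuba1a ran from -0.124 to 0.00454 (without knockout replicate 1). The differences in share, knockout minus WT in percentage points, changed sign for some libraries left out: Tuba1b ran from -0.872 to 0.372, Tuba1c from -0.0281 to 0.387, Tubb2a from -0.108 to 0.00202, Tubb4b from -0.717 to 1.29 and Tubb5 from -0.988 to 1.05, and the alpha to beta ratio from -0.00438 to 0.117. The cause was not tested. With the replicate number as a block 0 tubulin genes and 1 gene in all were called. Same-numbered libraries did not deviate together (r of 0.03, -0.04 and -0.12), so the numbers were not taken as pairs. Upper-quartile scaling shifted the median of all genes by -0.05. Depth limits Tubb2b, which lay at or below 3 counts.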
